A study of Rattus norvegicus and Mus musculus with 34 samples.

Results

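The RANKL, OPG and M-CSF axis is the set of secreted factors and receptors that sets how many osteoclasts, the cells that resorb bone, are formed from macrophage precursors. Its 7 genes were taken by symbol from the rat and mouse gene tables, and all 7 were found in both, among 20022 rat genes and 51912 mouse entries. They are Tnfsf11 (RANKL), Tnfrsf11a (its receptor RANK), Tnfrsf11b (the soluble decoy receptor osteoprotegerin, OPG), Traf6 (the adaptor that binds RANK inside the cell), Csf1 (M-CSF), Il34 (interleukin 34) and Csf1r (the receptor that Csf1 and Il34 share). The ratio of Tnfsf11 to Tnfrsf11b in each rat was described as well.

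RANKL is made mainly by osteoblast-lineage cells, osteocytes and activated lymphocytes, and its binding to RANK on macrophage precursors recruits TRAF6 and drives osteoclast differentiation. OPG binds RANKL and keeps it from RANK, so the balance of RANKL and its decoy is commonly read as a ratio. M-CSF and IL-34 act through CSF1R to keep precursors alive, and in bone healing this axis removes debris and old matrix before new bone is laid down.

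The rat samples were healing tissue of mixed cell types from periodontal bone defects in the mandible of wild-type male Sprague-Dawley rats, 6 to 8 weeks old. In the transected group (sensory nerve-) the inferior alveolar nerve, which carries sensation from the lower jaw, was cut in the same operation, and in the intact group (sensory nerve+) it was left. Both groups carried the defect and received penicillin, and tissue was taken on day 3 (3 intact and 4 transected rats), day 7 (4 and 4) and day 14 (4 and 4). The transection removed a segment of the nerve bundle before it enters the mandible, and so was not specific to 1 kind of nerve fibre. The mouse samples were RAW264.7 cells, a mouse macrophage line that can form osteoclasts, given 100 ng/ml LPS (6 samples) or LPS with 10 nM of CGRP, a neuropeptide released by sensory nerve endings (5 samples), for 6 h, and both groups carried LPS. The comparisons asked whether the axis differed with the nerve cut, how it moved over healing, and whether CGRP changed it in macrophages.

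Counts summed to between 14854648 and 18742491 per rat, and reads to between 55614185 and 71538840 per macrophage sample. Levels are given as CPM, the counts of a gene relative to the library total, scaled by TMM, which sets libraries on the genes that most of them share. Hemoglobin and other erythroid markers took between 0.200% and 39.0% of the counts of a rat, most in 1 transected rat on day 14 (replicate 3), whose TMM factor of 0.496 stood lowest. All 6 osteoblast markers and the 5 osteoclast markers in the rat table were detected in every rat. In the macrophages 5 of 6 macrophage markers were above 1 CPM, and all 4 epithelial markers were at 0. The 4 transected rats of day 7 came in a table of their own with no intact rat in it, so a difference between tables and the nerve cut cannot be told apart on that day, and the contrasts of those rats with transected rats of other days run across both tables. The fit over the 3 days and the interaction of nerve and day, which tests the days jointly, also include the transected rats of day 7. Since tissue of mixed cells was measured, fewer cells of a type and less RNA per cell cannot be told apart.

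Over healing, the clearest movements of the axis were a rise of Il34 and a fall of Tnfrsf11b, and both were seen with the nerve intact and with it cut. Il34 lay at 3.2 to 5.32 CPM in the 7 rats of day 3 and at 5.81 to 23.7 CPM in the 16 rats of the later days. Tnfrsf11b lay at 11.2 to 52.2 CPM on day 3 and at 2.65 to 9.70 CPM on day 14. With the nerve cut, Il34 passed the test (edgeR, adjusted p under 0.05) only from day 3 to day 7, across both tables. Every pass of these genes was lost with some single rat left out, and when same-numbered rats were set as blocks. Tnfsf11 itself did not pass the test in any comparison. No axis gene passed it for the nerve cut, where 0% of all genes did.

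**Figure D1:**
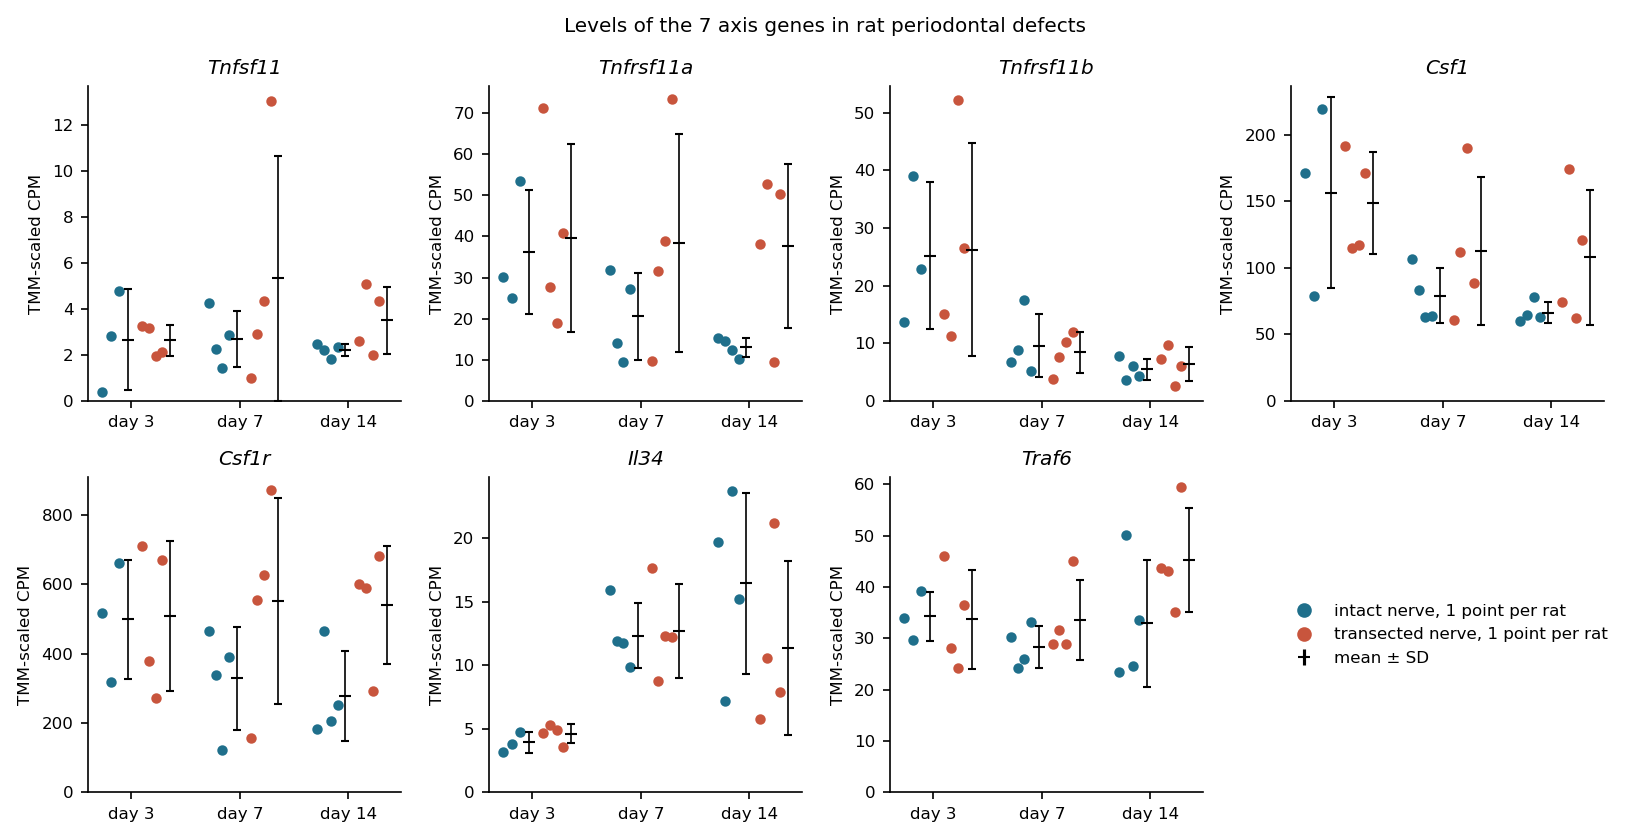
TMM-scaled CPM of each axis gene (vertical axes, starting at 0) by day and nerve, with 1 point per rat and the mean ± SD as a bar beside the points. Il34 lies at 5.32 CPM or less in every rat of day 3 and at 5.81 CPM or more in every later rat, while Tnfrsf11b lies highest on day 3 in both nerve groups.

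The ligand Tnfsf11 was scarce. It held between 6 and 203 counts per rat, or 0.392 to 13.0 CPM with a median of 2.62, so counting error alone is sizeable in single rats. In the intact group the levels were 0.392, 2.81 and 4.78 CPM on day 3, then 4.26, 2.24, 1.41 and 2.88 on day 7, and 2.46, 2.20, 1.84 and 2.35 on day 14. In the transected group they were 3.25, 3.18, 1.96 and 2.14 CPM on day 3, then 1.01, 2.93, 4.35 and 13.0 on day 7, and 2.62, 5.07, 1.99 and 4.35 on day 14. The highest rat of all was transected replicate 4 of day 7 and the lowest was intact replicate 1 of day 3, and the ranges of neighbouring groups overlapped throughout the order of means. The group means ran from 5.33 ± 5.32 CPM (SD, n = 4) in transected day 7 to 2.21 ± 0.271 CPM (n = 4) in intact day 14.

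Tnfsf11 did not pass the test for the nerve cut on any day. The log2 fold change, transected minus intact, was -0.04 (SE 0.679) on day 3, 0.95 (SE 0.698) on day 7 and 0.63 (SE 0.317) on day 14, with unadjusted p of 0.955, 0.208 and 0.0833. Without transected replicate 4 the value on day 7 was 0.04, so that difference rested on 1 rat. With 95% intervals of -0.65 to 2.55 on day 7 and -0.10 to 1.36 on day 14, rises of more than 2-fold lay within the intervals at this number of rats and this depth. From day 3 to day 14 Tnfsf11 differed by -0.25 (SE 0.658) with the nerve intact and by 0.36 (SE 0.345) with it cut.

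The genes that most resembled Tnfsf11 over the 23 rats included genes known from osteoclasts. By Pearson's r of log2 levels, given as a description over 15858 genes, the nearest were Slc9b2, a sodium-proton exchanger of osteoclasts (r = 0.869), Atp6v0d2, a subunit of the proton pump with which osteoclasts acidify bone (r = 0.850), and Slc16a7, a monocarboxylate transporter (r = 0.846). Within groups, after each group's mean was taken off, the 3 values were 0.868, 0.838 and 0.848, and without the lowest and the highest rat of Tnfsf11 they were 0.784, 0.756 and 0.734. Its r with the mean log2 level of the osteoclast markers was 0.792, against 0.408 with that of the osteoblast markers. Points in these correlations share library and tissue makeup.

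As the member on which the axis turns, the region upstream of rat Tnfsf11 is shown, 250 bases that end at the base before its transcription start (RefSeq, build GRCr8, gene strand). It was searched on both strands for the cAMP response element TGACGTCA, its shorter core TGACG and the AP-1 site TGANTCA, because the CGRP receptor is known to signal through cAMP. Matches would stand in capitals, and the window held none.

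Tnfsf11 upstream: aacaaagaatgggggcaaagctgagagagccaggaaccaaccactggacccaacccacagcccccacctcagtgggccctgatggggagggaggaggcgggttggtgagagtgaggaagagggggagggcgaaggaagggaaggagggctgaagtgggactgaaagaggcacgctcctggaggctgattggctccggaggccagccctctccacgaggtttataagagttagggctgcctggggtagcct

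Among 27457 rat windows of this length, 1.7% held the full cAMP response element, 19% the core, which lies within the full element, and 6.36% the AP-1 site. The absence of a match says only that these letters are not in this window. A window was also given for Csf1r, again with no match. Tnfrsf11a, Tnfrsf11b, Csf1, Il34 and Traf6 had none.

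Tnfrsf11b, the decoy receptor that restrains RANKL, fell over healing. In the intact group its levels were 13.7, 39.0 and 23 CPM on day 3, then 6.81, 8.91, 17.4 and 5.17 on day 7, and 7.82, 3.70, 5.98 and 4.36 on day 14. With the nerve cut the rats had 15, 11.2, 52.2 and 26.6 CPM on day 3, then 3.77, 7.59, 10.3 and 12 on day 7, and 7.2, 9.70, 2.65 and 6.11 on day 14. Every rat of day 3 stood above every rat of day 14, in both nerve groups, while day 7 overlapped both.

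The mean of Tnfrsf11b went between day 3 and day 14 from 25.2 ± 12.8 (n = 3) to 5.46 ± 1.84 CPM (n = 4) in intact rats, which is -2.18 on the log2 scale (SE 0.419, adjusted p = 0.0415, edgeR). In transected rats it went from 26.3 ± 18.5 to 6.41 ± 2.92 CPM (n = 4 each), or -2.06 on the log2 scale (SE 0.561, adjusted p = 0.0331). Both falls were thus about as large. The interaction of nerve and day, tested jointly over the 3 days, was far from the threshold (edgeR, unadjusted p = 0.835). By day 7 the log2 fold change against day 3 was -1.32 (SE 0.502, adjusted p = 0.161) with the nerve intact and -1.66 (SE 0.547, adjusted p = 0.0904) with it cut, which did not pass the test. With the nerve cut the fall to day 7 passed in 2 of 7 other settings. Transected and intact rats differed by 0.04, -0.21 and 0.22 on the log2 scale on days 3, 7 and 14, with SEs of 0.608, 0.470 and 0.398. The fall to day 14 lost the call without day 3 replicate 2 or 3 or day 14 replicate 1, 3 or 4 with the nerve intact (adjusted p of 0.0735 to 0.136, log2 fold changes of -2.39 to -1.70), and without day 3 replicate 3 or 4 or day 14 replicate 1, 3 or 4 with it cut (0.0605 to 0.0827, with -2.13 to -1.47). Under scaling by library totals the first had an adjusted p of 0.0514.

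Epithelial markers moved with Tnfrsf11b. The sum of Krt5, Krt14, Epcam and Cdh1, 4 of 4 of the list, spanned 1.96 to 828 CPM in intact and 31.2 to 485 CPM in transected rats of day 3, and 8.80 to 18.3 and 2.87 to 4.86 CPM on day 14, where Krt5 and Krt14 were at 0 in some rats of both nerve groups. Over 23 rats the r of log2 Tnfrsf11b with the mean log2 level of these markers was 0.759, and 0.546 within groups. Intact replicate 1 of day 3 had 1.96 CPM of these markers and 13.7 CPM of Tnfrsf11b. Osteoblast markers gave r = 0.148 over rats and 0.628 within groups. The part of either in the fall was not tested.

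The genes nearest to Tnfrsf11b were Carmil1, a regulator of actin capping (r = 0.898, within groups 0.810), Gss, glutathione synthetase (0.894 and 0.730), and Lman1, a cargo receptor of the secretory pathway (0.891 and 0.723).

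Taken per rat, the counts of RANKL and of its decoy lay far apart on day 3 and closer on the later days. Per 100 counts of Tnfrsf11b there were 2.87, 7.21 and 20.8 counts of Tnfsf11 in intact rats of day 3, then 62.6, 25.1, 8.09 and 55.7 on day 7, and 31.5, 59.5, 30.8 and 53.9 on day 14. In transected rats there were 21.6, 28.4, 3.75 and 8.05 on day 3, then 26.9, 38.6, 42.4 and 109 on day 7, and 36.4, 52.3, 75.0 and 71.2 on day 14. Only transected replicate 4 of day 7 had more counts of Tnfsf11 than of Tnfrsf11b. These are counts not set per length of transcript, so changes between rats can be read and the level of the ratio cannot.

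**Figure D2:**
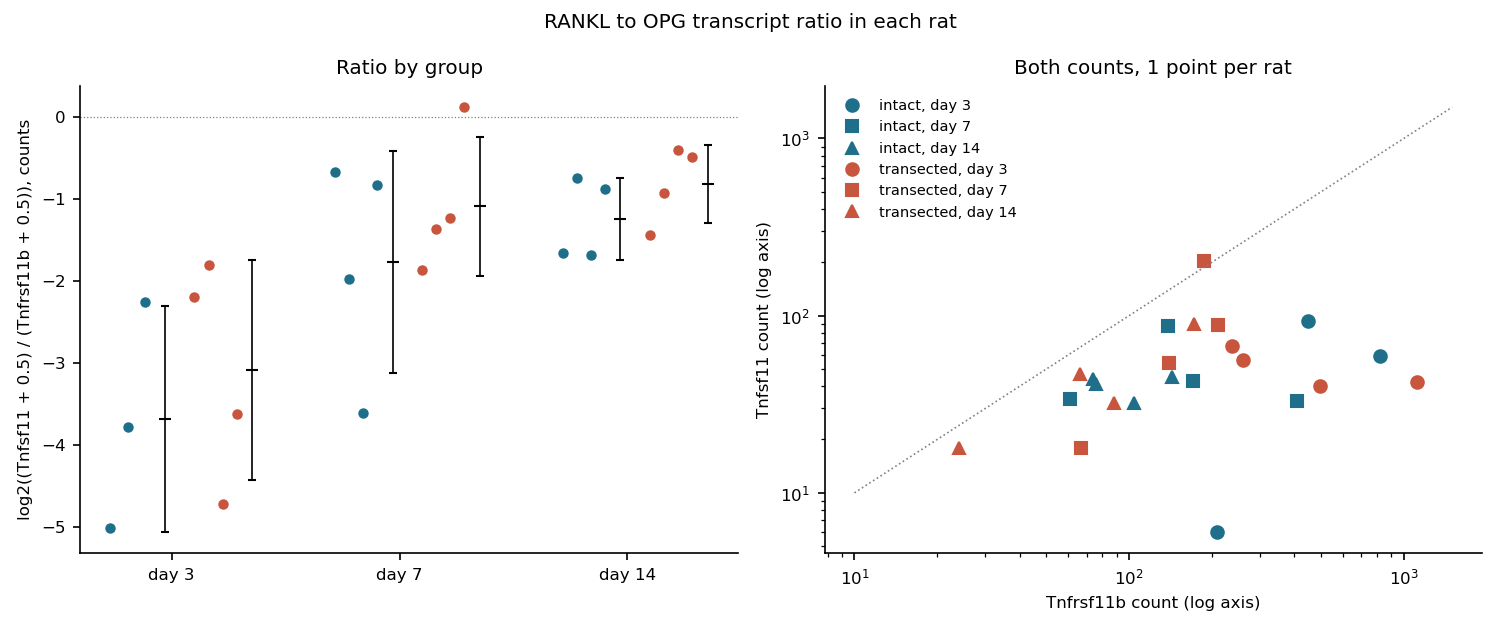
Left, log2 of the Tnfsf11 to Tnfrsf11b count ratio (0.5 added to each) by day and nerve, with 1 point per rat, the mean ± SD as a bar and equal counts as the dotted line at 0. Right, the 2 counts of each rat on log axes with equality dotted, where the day 3 rats (circles) hold 209 to 1119 counts of Tnfrsf11b and only 2 later rats reach 210 or more.

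The mean log2 ratio went from -3.68 ± 1.38 (SD, n = 3) to -1.77 ± 1.35 and -1.24 ± 0.499 (n = 4 each) over days 3, 7 and 14 in intact rats. In transected rats it went from -3.09 ± 1.34 to -1.09 ± 0.849 and -0.82 ± 0.479 (n = 4 each). Day 14 did not overlap day 3 in either nerve group. The difference between those days was 2.27 with the nerve cut, which gave the smallest p that 4 against 4 rats allow in a 2-sided exact permutation test (p = 0.0286, adjusted over 10 ratio comparisons 0.190). It was 2.44 with the nerve intact, where 3 against 4 rats cannot go below the p of 0.0571 that was reached (exact permutation, adjusted p = 0.190). Neither passed after adjustment.

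Transection was not separable from the spread in this ratio. Transected minus intact, the mean log2 ratio differed by 0.60 on day 3, 0.69 on day 7 and 0.43 on day 14, with exact permutation p of 0.457, 0.457 and 0.229. All 3 were higher with the nerve cut, and their mean of 0.57 gave p = 0.196 when nerve labels were permuted within days (exact, 2-sided, adjusted p = 0.381). Without transected replicate 4 of day 7 the difference on that day was 0.28, and without intact replicate 3 it was 0.07.

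Tnfrsf11a, the receptor RANK, is carried by osteoclast precursors and osteoclasts. In the intact group its levels were 30.2, 25 and 53.5 CPM on day 3, then 31.8, 14.0, 9.45 and 27.1 on day 7, and 15.2, 14.6, 12.5 and 10.1 on day 14. Transected rats had 71.3, 27.7, 19 and 40.9 CPM on day 3, then 9.73, 31.6, 38.9 and 73.4 on day 7, and 38.1, 52.8, 9.50 and 50.4 on day 14. The intact rats of day 14 were low and close together. Of the transected rats of that day, 3 lay far above them and replicate 3 lay below. Erythroid markers took 20.9%, 0.200%, 39.0% and 25.1% of the counts of the 4 transected rats and 1.07% to 15.6% in the intact ones.

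With the nerve intact, Tnfrsf11a fell from 36.2 ± 15.2 (n = 3) to 13.1 ± 2.31 CPM (n = 4) between day 3 and day 14, or by -1.44 on the log2 scale (SE 0.286, adjusted p = 0.0422). In transected rats it stood at 39.7 ± 22.9 and 37.7 ± 19.9 CPM (n = 4 each), which is -0.11 on the log2 scale (SE 0.547, adjusted p = 0.900). That the fall differed between nerve groups is not shown. The interaction of nerve and day, tested jointly over the 3 days, gave an unadjusted p of 0.252 (edgeR, adjusted p = 0.998). An interaction for the fall to day 14 alone was not tested. On day 14 transected minus intact was 1.5 on the log2 scale (SE 0.456, 95% interval 0.45 to 2.55, unadjusted p = 0.0108), and the adjusted p was 0.519. With 1 rat left out it ran from 1.28 to 1.79, the latter without transected replicate 3. Over the 3 days together the difference was 0.88 (SE 0.339, unadjusted p = 0.0172, adjusted p = 0.860). The fall with the nerve intact lost the call without any rat but day 14 replicate 2 (adjusted p of 0.0533 to 0.141, log2 fold changes of -1.64 to -1.03), with scaling by library totals (0.0803) and with all 23 rats in one fit (0.0945).

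Within groups Tnfrsf11a ran with osteoclast markers, and over healing it did not. The sum of Acp5, Ctsk, Ocstamp, Calcr and Atp6v0d2, 5 of the 6 listed, was 293 to 1860 CPM in intact and 509 to 2448 CPM in transected rats of day 3, and 1226 to 2713 and 934 to 10355 CPM on day 14, and none was at 0 in any rat. Its median thus went from 531 to 1837 CPM with the nerve intact, where Tnfrsf11a fell, and from 814 to 7948 CPM with it cut. The 6 macrophage markers, Csf1r included, summed to 910 to 1933 and 894 to 2093 CPM on day 3, and to 433 to 902 and 589 to 1400 CPM on day 14. Log2 Tnfrsf11a had an r of 0.640 over rats and 0.938 within groups with the mean log2 level of those osteoclast markers. With the macrophage markers other than Csf1r it had 0.761 and 0.733. Its nearest genes were Slc37a2, a sugar-phosphate transporter (r = 0.962), Atp6v1c1, a proton pump subunit (0.950), and Frrs1, a ferric reductase (0.940). The part of osteoclast or macrophage number in the fall or in the difference between nerve groups was not tested.

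**Figure D3:**
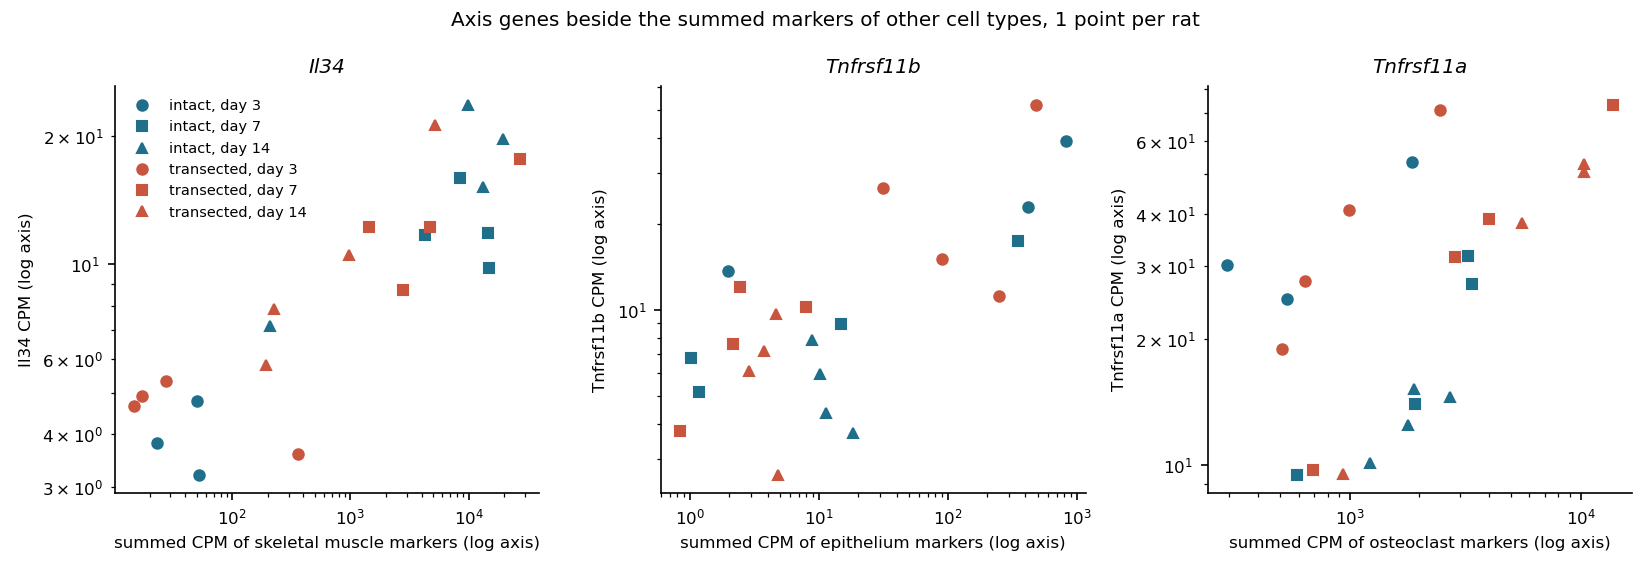
CPM of Il34, Tnfrsf11b and Tnfrsf11a (vertical log axes) against the summed CPM of skeletal muscle, epithelial and osteoclast markers (horizontal log axes), with 1 point per rat, colour for the nerve and shape for the day. The r values given here are with the mean log2 level of the same markers, not with the plotted sum. Over 23 rats r was 0.886 for Il34 and 0.759 for Tnfrsf11b. For Tnfrsf11a it was 0.640 over rats and 0.938 within groups.

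Traf6, which passes the signal on inside the cell, had the smallest ratio of highest to lowest rat in the axis (2.53), at 23.5 to 59.4 CPM over the 23 rats. Its group means lay between 28.3 ± 4.07 (intact day 7) and 45.3 ± 10.2 CPM (transected day 14, n = 4 each), and neighbouring groups overlapped. On day 14 the intact rats had 23.5, 50.2, 24.6 and 33.6 CPM and the transected rats 43.7, 43.1, 35.1 and 59.4 CPM, differing by 0.45 on the log2 scale (SE 0.265, adjusted p = 0.555). When libraries were scaled by their totals this value was -0.02. The rats ran from 29.7 to 39.3 CPM in intact day 3, 24.2 to 33.1 in intact day 7, 24.2 to 46.0 in transected day 3 and 28.8 to 45.0 in transected day 7. Nearest to it were Vps54 (r = 0.909), Ino80e (0.893) and Cln3 (0.888).

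The second receptor of the axis, Csf1r, marks macrophages and their precursors and was the most abundant member by CPM, which is not set per length. In the intact group its levels were 518, 319 and 661 CPM on day 3, then 464, 337, 122 and 391 on day 7, and 183, 466, 206 and 252 on day 14. In the transected group they were 711, 379, 272 and 670 CPM on day 3, then 156, 553, 627 and 870 on day 7, and 599, 588, 294 and 683 on day 14. On day 14, 3 transected rats stood above all intact rats and replicate 3 lay among them.

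The log2 fold change of Csf1r on day 14, transected minus intact, was 0.95 (SE 0.361, 95% interval 0.12 to 1.78, unadjusted p = 0.0291, adjusted p = 0.519), and over the 3 days 0.60 (SE 0.283, unadjusted p = 0.0446, adjusted p = 0.860). Between day 3 and day 14 it was -0.83 (SE 0.388, adjusted p = 0.212) with the nerve intact and 0.05 (SE 0.361, adjusted p = 0.934) with it cut. Neither passed the test. Csf1r followed the other macrophage markers (r = 0.808, within groups 0.882 over 5 genes), and its nearest genes were Cyth4 (r = 0.978), Tyrobp, an adaptor of myeloid receptors (0.960), and Nfam1, another immune receptor (0.954). Among pairs of axis genes, Csf1r and Tnfrsf11a were the closest (r = 0.891, within groups 0.860).

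Csf1, the M-CSF ligand, had its 2 highest group means on day 3. In the intact group its levels were 172, 78.9 and 220 CPM on day 3, then 107, 83.2, 62.9 and 63.6 on day 7, and 60.0, 64.3, 78.1 and 63.2 on day 14. With the nerve cut the rats had 191, 115, 117 and 171 CPM on day 3, then 60.5, 112, 190 and 88.7 on day 7, and 74.2, 174, 62.3 and 121 on day 14. Intact rats of day 14 lay narrowly below all those of day 3, and transected rats overlapped between days. The log2 fold change from day 3 to day 14 was -1.21 (SE 0.314, adjusted p = 0.0637) with the nerve intact and -0.51 (SE 0.332, adjusted p = 0.290) with it cut. DESeq2 called the first (adjusted p = 0.00743), and so did edgeR with all 23 rats in one fit. On day 14 the transected group differed from the intact one by 0.69 (SE 0.313, unadjusted p = 0.0594, adjusted p = 0.519), by 0.35 without transected replicate 2 and by 0.39 with scaling by library totals. Nearest to Csf1 were Plk3 (r = 0.873), Spp1, osteopontin (0.863), and Ascc2 (0.863).

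Il34, the other ligand of CSF1R, was lowest on day 3. In the intact group its levels were 3.2, 3.81 and 4.78 CPM on day 3, then 15.9, 11.9, 11.7 and 9.83 on day 7, and 19.7, 7.16, 23.7 and 15.2 on day 14. Transected rats had 4.64, 5.32, 4.90 and 3.59 CPM on day 3, then 17.7, 8.73, 12.3 and 12.2 on day 7, and 5.81, 10.5, 21.2 and 7.87 on day 14. In the order of group means, the only gap without overlap lay between transected day 14 and transected day 3.

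Il34 rose by 1.67 on the log2 scale from day 3 to day 7 with the nerve intact (SE 0.256, adjusted p = 0.0147), from 3.93 ± 0.793 (n = 3) to 12.3 ± 2.57 CPM (n = 4). In transected rats it rose by 1.43 (SE 0.253, adjusted p = 0.0174), from 4.61 ± 0.738 to 12.7 ± 3.69 CPM (n = 4 each). By day 14 the rise over day 3 was 2.05 with the nerve intact (SE 0.426, adjusted p = 0.0439). The corresponding value with the nerve cut, 1.23 (SE 0.400), did not pass the test (adjusted p = 0.0580), but passed in 3 of 7 other settings. Transected and intact rats differed by 0.21, 0.03 and -0.53 on days 3, 7 and 14 (SE 0.251, 0.248 and 0.492), and the interaction gave an unadjusted p of 0.332. The value of day 14 ran from -1.06 (without transected replicate 3) to -0.30 (without intact replicate 3) with 1 rat left out, and was -0.31 without transected replicate 1, -0.82 without intact replicate 2 and -1.07 with scaling by library totals. The rise to day 7 lost the call without day 3 replicate 1 (adjusted p = 0.0643) or day 7 replicate 2 (0.0590) with the nerve intact, and without day 3 replicate 1 (0.0610) or day 7 replicate 3 (0.0539) with it cut. Scaling by library totals gave 0.0711 for the first, and the rise to day 14 lost the call without any rat but day 14 replicate 2 (0.0864 to 0.146, with log2 fold changes of 1.82 to 2.24). The rise to day 7 was 1.5 and 1.66 with the nerve intact and 1.42 and 1.45 with it cut in the fits that lost the call.

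Skeletal muscle markers moved with Il34. The sum of Acta1, Ckm, Myh4, Tnnt3 and Mb, 5 of 5, was 23.1 to 52.9 CPM in intact and 14.7 to 359 CPM in transected rats of day 3. On day 7 it was 4248 to 14892 and 1438 to 27054 CPM, and on day 14 it was 209 to 19669 and 195 to 5208 CPM, and Myh4 was at 0 in some intact rats of day 3. Over 23 rats the r of log2 Il34 with the mean log2 level of these markers was 0.886, and 0.694 within groups. Endothelial markers gave 0.707 and 0.681, and neutrophil markers -0.195 and -0.666. The nearest genes were Eln, the elastin of vessels and connective tissue (r = 0.960), Ackr1, a chemokine-binding receptor of venules and red cells (0.956), and LOC100911413 (0.943). What part muscle or vessels had in the rise was not tested.

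Of the 7 genes, edgeR called 1 between day 7 and day 3 with the nerve intact (Il34), where 6.67% of all genes tested were called, and 3 between day 14 and day 3 (Tnfrsf11a, Tnfrsf11b and Il34), where 5.78% were. With the nerve cut it called 1 at each of the same contrasts (Il34, then Tnfrsf11b), against 10.4% and 23.5% of all genes. From day 7 to day 14 it called none, and the background was 0.0202% with the nerve intact and 0.0138% with it cut. The members whose groups did not overlap numbered 1, 4, 1 and 2 in the first 4 of these contrasts, where 25.4%, 24.5%, 21.7% and 26.7% of all genes did not overlap. With the nerve cut, the share of members called thus lay near or under that of all genes. These shares themselves rest on few rats. With 1 rat left out, the genes called numbered 254 to 1547 (1002 with all rats) and 0 to 3134 (871) for days 7 and 14 against day 3 with the nerve intact, and 0 to 1359 (1523) and 1619 to 4352 (3393) with it cut. The contrasts with day 3 share its rats, as do those with day 14.

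For the nerve cut edgeR called no member on day 3, 7 or 14, over the 3 days or in the interaction. It called 0% of all genes in each of these comparisons. An unadjusted p under 0.05 was held by 0, 0, 2, 2 and 0 members, in the same order. Of all genes, 9.33% held one on day 14 and 5.11% over the 3 days, with smaller shares in the other comparisons. DESeq2 called no member either, and 95 genes in all on day 14. On that day the groups of no member were without overlap, against 3.37% of all genes. Fold changes on day 14 also moved with scaling, and scaling by library totals in place of TMM moved the median over all genes by -0.44 on the log2 scale.

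**Figure D4:**
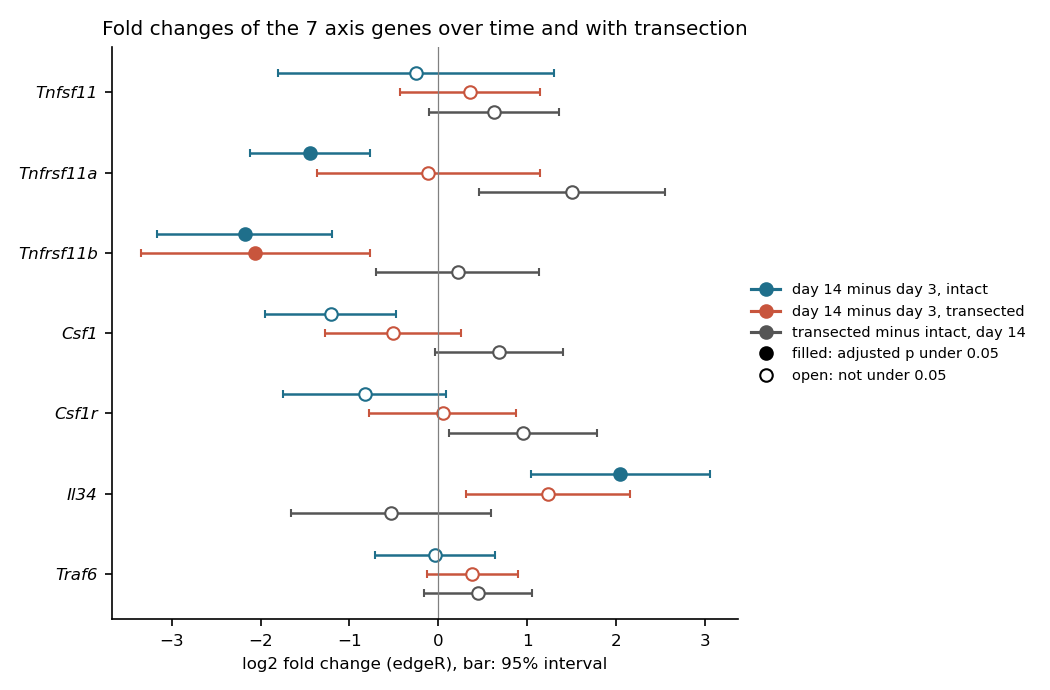
Log2 fold changes of the axis genes with 95% intervals (horizontal axis, edgeR) for day 14 minus day 3 with the nerve intact, the same with it cut, and transected minus intact on day 14. Filled points passed an adjusted p of 0.05. Tnfrsf11b lies near -2 in both nerve groups, and Tnfrsf11a lies at -1.44 with the nerve intact and at -0.11 with it cut.

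Downstream of the axis, 12 osteoclast effector genes, 17 genes of RANK signalling, 9 of ITAM co-stimulation (the second signal that osteoclast precursors need), 9 of M-CSF signalling, 10 brakes on osteoclast formation, 13 inducers of RANKL and 4 alternative partners of the members were followed. None passed the test for the nerve cut on day 14, where 0% of all genes did. Of the effectors 11 were in the rat table. They all had positive fitted log2 fold changes with the nerve cut, with a median of 1.61 against 0.03 over all genes. Single rats did not all follow. The summed osteoclast markers were 934 CPM in transected replicate 3, below the 1226 to 2713 CPM of the intact rats of day 14. The other transected rats had 5547, 10349 and 10355 CPM. Other marker sums differed on that day in both directions. Medians of the intact and transected rats were 143 and 658 CPM for osteocyte and 12151 and 25027 CPM for osteoblast markers. Skeletal muscle markers went the other way, with 11532 and 599 CPM, as did Schwann cell markers, with 466 and 110 CPM. Transected replicate 3 had 5208 CPM of muscle markers, and the other transected rats 195 to 972 CPM. The part of tissue makeup was not tested. Scaling by library totals moved the median of all genes by -0.44 at this contrast. Smallest in p were Itgb3, the integrin chain with which osteoclasts attach (1.94, SE 0.376, unadjusted p = 0.00082, adjusted p = 0.519), Atp6v0d2 (1.61, SE 0.528) and the chloride channel Clcn7 (1.09, SE 0.366). The medians of the RANK, ITAM and M-CSF lists were 0.11, 0.39 and 0.35. In the RANK list the kinase Src (0.92, SE 0.263), the osteoclast master regulator Nfatc1 (0.78, SE 0.277) and Camk4 (1.42, SE 0.622) were first by p.

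Between day 3 and day 14, 2 of 11 effectors rose with the nerve cut and 0 with it intact, where 23.5% and 5.78% of all genes were called in either direction. Those that rose were Ctsk, the collagen-degrading protease of osteoclasts (2.54, SE 0.753, adjusted p = 0.0435), and Car2, the carbonic anhydrase that supplies protons (1.7, SE 0.505, adjusted p = 0.0439), while Acp5 had 2.70 (SE 0.867, adjusted p = 0.0556). The median of the list was 1.06 with the nerve cut and 0.16 with it intact, against -0.05 and 0.00 over all genes. Among the brakes, Rbpj, a repressor of osteoclast genes, fell in both nerve groups (-1.48, SE 0.275, with the nerve intact and -1.62, SE 0.204, with it cut, adjusted p = 0.0408 and 0.0029). With the nerve intact Peli1 had 0.52 (SE 0.125, adjusted p = 0.0558). In transected rats, Nfkbia (0.87, SE 0.224) and Tnfaip3 (0.95, SE 0.267), which damp NF-kappaB or its inputs, rose, and so did Peli1 (0.64, SE 0.182). In all, 3 genes of the list of brakes rose and 1 fell with the nerve cut.

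The inducers of RANKL moved in both directions over the same span. With the nerve intact Tnf fell (-2.91, SE 0.575, adjusted p = 0.0419) and Ptger4, a prostaglandin E2 receptor, rose (0.94, SE 0.208, adjusted p = 0.0490), while Il11 had -1.68 (SE 0.629, adjusted p = 0.136). In transected rats Ptger4 (1.30, SE 0.284) and Il1b (2.69, SE 0.759) rose and Ptgs2, the inducible cyclooxygenase, fell (-1.82, SE 0.510), with adjusted p of 0.0170, 0.0370 and 0.0361. Of the alternative partners, Tnfsf10 (TRAIL), a death ligand that OPG can also bind, rose from 2.44 to 24.7 CPM with the nerve intact (3.30, SE 0.520, adjusted p = 0.0326) and from 2.53 to 22.6 CPM with it cut (3.06, SE 0.556, adjusted p = 0.0093). Sdc1, a syndecan reported to bind IL-34, fell with the nerve intact (-1.67, SE 0.246, adjusted p = 0.0281) and had -0.86 (SE 0.368, adjusted p = 0.123) with it cut. The third partner by p was Lgr4, a receptor of RANKL, with the nerve intact (0.26, SE 0.293), and Ptprz1, a receptor of IL-34, with it cut (1.81, SE 0.778, adjusted p = 0.124). In ITAM co-stimulation 2 of 9 genes were called with the nerve cut, a share near the 23.5% of all genes, as were 3 of 12 inducers. The 2 were Oscar, which rose (2.0, SE 0.512, adjusted p = 0.0271), and Trem2, which fell (-1.51, SE 0.383, adjusted p = 0.0261), while Syk had 0.79 (SE 0.317).

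In RAW264.7 macrophages the receptor side of the axis was expressed and the RANKL and OPG genes were not detected. Tnfsf11 and Tnfrsf11b had 0 reads in all 11 samples, which allows up to 3 reads per sample, or 0.0419 to 0.0539 CPM, for counting error only. Set per kilobase of exon, Csf1r stood at 96.7 ± 1.59 CPM in LPS samples, Tnfrsf11a at 17.0 ± 0.730, Traf6 at 4.57 ± 0.0847, Csf1 at 2.17 ± 0.143 and Il34 at 0.277 ± 0.0567 (n = 6 each), and no neighbours in this order overlapped. In the mm10 (GRCm38) genome the last 4 of these genes lie, by GENCODE annotation, at chr1:105780718-105847981 (Tnfrsf11a, plus strand), chr2:101678429-101701669 (Traf6, plus), chr3:107741048-107760469 (Csf1, minus) and chr8:110741829-110805924 (Il34, minus). No unstimulated cells were analysed here, so what LPS did to the axis cannot be read.

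With CGRP the axis genes differed by little. Csf1 read 11.5, 11.5, 12, 12.4, 11.3 and 10.2 CPM in LPS samples and 10.3, 10.9, 11, 9.44 and 10.3 CPM with CGRP, differing by -0.14 on the log2 scale (SE 0.0481, unadjusted p = 0.0121, adjusted p = 0.388, limma). Csf1r ranged from 546 to 570 CPM with LPS and from 564 to 580 CPM with CGRP, differing by 0.04 (SE 0.0143, adjusted p = 0.388). Tnfrsf11a ranged from 96.2 to 109 CPM and from 104 to 109 CPM (0.05, SE 0.0244, adjusted p = 0.488). The groups overlapped for every gene.

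Traf6 ranged from 35.1 to 36.9 CPM with LPS and from 34.6 to 38.2 CPM with CGRP (-0.0044, SE 0.0243, adjusted p = 0.976), and Il34 from 0.397 to 0.687 and from 0.373 to 0.709 CPM (0.05, SE 0.0922, adjusted p = 0.905). Limma called 0 of the 5 members tested and 0.0222% of all genes. An unadjusted p under 0.05 was held by 3 members and by 10.1% of all genes. On the reads, edgeR and DESeq2 called no member either. Outside Il34, whose interval ran from -0.15 to 0.24, the 95% intervals of the tested members lay within -0.24 to 0.11 on the log2 scale, so changes of 2-fold lay outside them all. No downstream list held a called gene. The labels do not say whether samples were separate cultures, so these p-values measure only the spread between these samples.

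**Figure D5:**
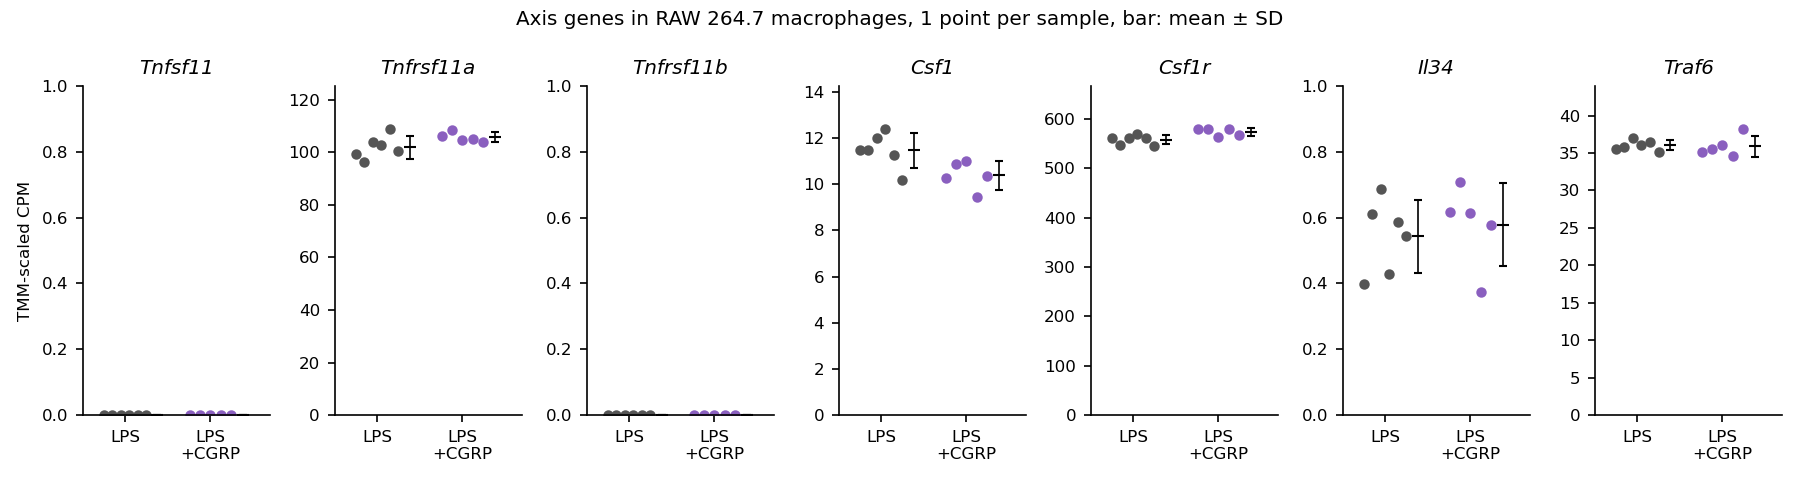
TMM-scaled CPM of the axis genes in RAW264.7 cells given LPS (grey, 6 samples) or LPS and CGRP (purple, 5 samples), with 1 point per sample and the mean ± SD as a bar. Tnfsf11 and Tnfrsf11b are at 0 in every sample, and the groups overlap for all other genes, with Csf1 at 11.5 ± 0.756 against 10.4 ± 0.621 CPM.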

How the data were processed

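RNA sequencing was measured in healing mandible tissue of 23 rats and in 11 RAW264.7 samples. The members and gene lists were chosen with earlier results of these data known. For the rats the authors deposited expected counts per gene after HISAT alignment to mRatBN7.2 (Bowtie2 is also named, and the counting program is not given in the sources used here). Of these values 36.98% were whole, and all were rounded. For the macrophages, after cutadapt, STAR (mm10) and featureCounts, the deposited values were a signal, gene counts scaled by 1 factor per run. Whole reads were recovered (100% of values within 0.1 of a whole number), and the 2 runs of a sample were summed.

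Rat counts were tested with edgeR 4.0.16 (R 4.3.3), quasi-likelihood, TMM and a filter on low counts, on the groups compared. Macrophages were tested with limma 3.58.1 on log2 of TMM-scaled CPM plus 0.5. Adjusted p-values are Benjamini-Hochberg over all genes tested, with a threshold of 0.05. The ratio used counts plus 0.5 and exact permutation tests (SciPy 1.17.1), with p adjusted over 10 comparisons. Every fold change is transected minus intact, later minus earlier day, or LPS with CGRP minus LPS. Alternatives were DESeq2 1.42.0, other scalings and filters, a replicate block, all rats in one fit and leaving out samples. Genes named were the members, the 3 smallest p of each list in the comparisons described, and the 3 genes with the highest Pearson r to a member. Peli1 with the nerve cut was named after its value was seen, to complete the count of brakes. Scripts were tested on simulated data. No sample pair agreed within sampling noise. 1 gene of the list of brakes is not reported here.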

Additional observations from a re-analysis of the deposited data

Results flagged for a closer look

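Traf6 in transected replicate 4 of day 7 stood at 45.0 CPM, far from the other 3 rats of its group, which lay between 28.8 and 31.5 CPM. It was the only sample so far from its group among 50 groups tested, and chance alone singles out about 5% of groups.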

How the results depend on the processing

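Of single member values, 543 kept their direction and side of the threshold over the other settings. Another 10 lost the call, 7 gained it and 19, none of them called, crossed 0. Of the values with 1 sample left out, 758 kept both, 26 lost the call, 5 gained it and 71 crossed 0. All 30 ratio settings kept both.

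Scaling by library totals called 0 members from day 3 to day 7 and 1 from day 3 to day 14 with the nerve intact. With the nerve cut, DESeq2 and all 23 rats in one fit called 2 at each contrast with day 3, and RLE size factors called 2 from day 3 to day 14. The cause was not tested. With 1 rat left out, the members called numbered 0 to 2 and 0 to 4 with the nerve intact (days 7 and 14 against day 3) and 0 to 1 at both contrasts with it cut.

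Same-numbered samples did not deviate together in every pair of any comparison, so the numbers were not taken as pairs. With a replicate block 0 members were called at all 4 contrasts with day 3, and block values that crossed 0 were 0.43 (Tnfsf11), -0.029 (Tnfrsf11a), -0.13 (Tnfrsf11b) and -0.18 (Csf1r) for transection on day 3, 0.13 (Tnfsf11) from day 3 to day 14 with the nerve intact, and, with it cut, 0.000665 (Traf6) from day 3 to day 7, 0.057 (Tnfrsf11a) and 0.11 (Csf1r) from day 7 to day 14. Library totals gave 0.0083 (Traf6, transection on day 3), -0.030 (Il34, day 7), -0.061 (Tnfrsf11b) and -0.025 (Traf6, both day 14), -0.13 (Tnfrsf11b, 3 days together), -0.021 (Tnfsf11, day 3 to 7) and 0.058 (Traf6, day 3 to 14) with the nerve intact, and -0.24 (Csf1r, day 3 to 14) with it cut. For Traf6 from day 3 to day 7 with the nerve cut DESeq2 gave 0.0080 and RLE 0.00788, and for CGRP run 1 alone gave 0.0018. Library totals moved the median of all genes by -0.44, -0.38 and -0.37 for transection on day 14 and for days 7 and 3 to day 14 with the nerve cut, and by -0.16 for transection over the 3 days.

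Counts over all genes moved with the tool and with single rats. With the nerve intact, edgeR called from day 3 to day 7 1002 genes, DESeq2 2807, library totals 579 and the block 43. To day 14 these were 871, 3376, 547 and 0, with 2605 in one fit of all rats. From day 7 to day 14 they were 3, 325, 13 and 0. With the nerve cut, day 3 to 7 gave 1523, 3218 by DESeq2 and 2 with the block. Day 3 to 14 gave 3393, and 1184 by library totals. Day 7 to 14 gave 2, 1991 by DESeq2, 21 by library totals, 0 with the block and 927 in one fit. For transection DESeq2 called 1 (day 7), 95 (day 14) and 1 (3 days) against 0. For CGRP limma called 3, library totals 11, a stricter filter 13, run 1 alone 7, the block 28, edgeR 0 and DESeq2 73.

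With 1 sample left out, values that crossed 0 ran from -0.52 to 0.62 for Tnfsf11, -0.31 to 0.49 for Tnfrsf11a, -0.56 to 0.54 for Tnfrsf11b, -0.39 to 0.23 for Csf1, -0.22 to 0.25 for Csf1r, -0.21 to 0.070 for Traf6 and -0.066 to 1.31 for the ratio for transection on day 3. For transection on day 7 they ran from -0.42 to 0.26 for Tnfrsf11b and -0.16 to 0.18 for Il34. For transection on day 14 they ran from -0.058 to 0.44 for Tnfrsf11b. For day 7 against day 3 (nerve intact) they ran from -0.47 to 0.75 for Tnfsf11. For day 14 against day 7 (nerve intact) they ran from -0.45 to 0.049 for Tnfsf11, -0.036 to 0.37 for Traf6 and -0.080 to 0.90 for the ratio. For day 14 against day 3 (nerve intact) they ran from -0.74 to 0.49 for Tnfsf11 and -0.28 to 0.10 for Traf6. For day 7 against day 3 (nerve cut) they ran from -0.56 to 0.36 for Tnfrsf11a, -0.19 to 0.42 for Csf1r and -0.18 to 0.15 for Traf6. For day 14 against day 7 (nerve cut) they ran from -0.91 to 0.34 for Tnfsf11, -0.34 to 0.50 for Tnfrsf11a, -0.39 to 0.32 for Csf1, -0.33 to 0.28 for Csf1r and -0.64 to 0.046 for Il34. For day 14 against day 3 (nerve cut) they ran from -0.34 to 0.36 for Tnfrsf11a and -0.16 to 0.30 for Csf1r. For transection over the 3 days they ran from -0.13 to 0.19 for Tnfrsf11b. For CGRP they ran from -0.027 to 0.0084 for Traf6.

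Tnfsf11 had 6 to 203 counts per rat, so counting error adds to the spread between rats in its level and its ratio.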
